A study of Mus musculus with 8 samples.

Results

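The genes described here are 8 serotonin receptors of the mouse hippocampus, Htr1a, Htr1b, Htr2a, Htr2c, Htr4, Htr5a, Htr6 and Htr7, taken by their symbols out of 19505 genes on the array. Their RNA was measured in hippocampi of 8 mice, 4 labelled as having impaired memory (impaired) and 4 labelled as having intact memory (intact), with 1 array per mouse. All 8 mice carry the strain name B6.Cg-Tg(APPswe)E1-2Dbo/J, were 18 to 20 months old and had been through the Morris water maze, in which a mouse learns where a platform lies hidden under water. Both groups therefore share a transgene for a mutant amyloid precursor protein, no group without it was analysed here, and the labels name no promoter for it. The comparison asks which hippocampal RNAs go with memory loss among such aged mice.

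Serotonin reaches the hippocampus through axons of neurons whose cell bodies lie in the raphe nuclei of the brainstem, so the tissue holds the receptors but hardly any cell that makes the transmitter. Htr1a, Htr1b and Htr5a encode receptors that act through inhibitory Gi/o proteins, Htr2a and Htr2c through Gq and phospholipase C, and Htr4, Htr6 and Htr7 through Gs and adenylyl cyclase. The Htr1a receptor is known for the inhibition of pyramidal and granule cells, and the Htr4 and Htr6 receptors have long been studied as drug targets for memory.

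None of the 8 receptors differed between the groups by more than the spread between mice. All 8 were measured by 1 probe set each, and all lay above the level a gene needed to be tested. Of the 8, 0 passed limma's test at an adjusted p of 0.05, and 0 had an unadjusted p under 0.05. Over all 14628 genes tested 0 passed (0%), 685 had an unadjusted p under 0.05 (4.68%), and the groups did not overlap for 377 (2.58%), against 0 of the 8 receptors. In 4 receptors the value was above 0, that is higher in the impaired group, beside 47.1% of all genes tested, and in 4 it was below 0, and the median difference was -0.0012 on the log2 scale, beside -0.0083 over all genes tested. Variation between single mice was largest in Htr7 and Htr2c, whose SDs were above those of 98.2% and 97.8% of genes tested. For the other receptors this share ran from 13.4% (Htr6) to 87.8% (Htr1a). The lowest values of Htr7 and Htr2c came from mice that were also lowest in markers of tissue next to the hippocampus.

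Values are log2 expression after robust multi-array averaging, so a difference of 1 is a doubling, and differences are impaired minus intact. The number of arrays limits the precision, and the median standard error of a difference was 0.10 over all genes tested. In bulk tissue, fewer cells of a type and less RNA per cell cannot be told apart. Levels of different receptors are not compared, since each rests on other probes. Markers of the hippocampus were present: 4 of 5 listed markers of CA1 neurons, 5 of 5 of CA3 neurons and 7 of 8 of dentate granule cells were above the floor of 5.33. So were 12 of 12 thalamus markers and 14 of 15 choroid plexus markers, which belong to tissue that touches the hippocampus. The same held for 6 of 6 listed neocortex markers and 8 of 10 striatum markers. A marker score is, for each mouse, how far the listed genes lay on average above or below their 8-mouse means, in log2 units. The plexus score lay near -0.92 in both impaired mouse 3 and intact mouse 3, and the thalamus score was -1.38 in intact mouse 3 against -0.22 to 0.48 in the other 7 mice. The striatum score was 0.61 in intact mouse 2 against -0.25 to 0.21 in the other 7, and the neocortex score ran from -0.15 to 0.14. Neither was set against the receptors.

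For 3 receptors the sequence just before the annotated gene is shown, because Htr1a and Htr2a had positive correlations with the CA1 score described further on and Htr2c a negative one. They come from RefSeq, assembly GRCm38.p6, plus strand, at chr13:105443443-105443692 for Htr1a, chr14:74640624-74640873 for Htr2a and chrX:146962263-146962463 for Htr2c. Capitals mark matches, on either strand, to the GC box GGGCGG or to CCAAT.
Htr1a: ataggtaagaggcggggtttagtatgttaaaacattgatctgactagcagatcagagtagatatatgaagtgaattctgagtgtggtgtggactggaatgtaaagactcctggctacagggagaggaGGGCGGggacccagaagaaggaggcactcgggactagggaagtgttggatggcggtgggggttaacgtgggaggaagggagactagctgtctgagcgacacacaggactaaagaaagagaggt
Htr2a: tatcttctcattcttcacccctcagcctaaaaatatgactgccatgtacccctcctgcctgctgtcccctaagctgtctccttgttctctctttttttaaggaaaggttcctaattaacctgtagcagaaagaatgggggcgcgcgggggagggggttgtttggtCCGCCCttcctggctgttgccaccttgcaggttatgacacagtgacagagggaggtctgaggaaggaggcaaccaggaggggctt
Htr2c: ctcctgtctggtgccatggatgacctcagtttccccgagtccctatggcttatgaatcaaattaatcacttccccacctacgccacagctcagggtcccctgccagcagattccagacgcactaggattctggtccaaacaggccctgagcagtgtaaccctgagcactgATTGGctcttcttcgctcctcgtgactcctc
Htr1a and Htr2a each held 1 GC box and Htr2c 1 CCAAT match. Of 32851 RefSeq windows of 250 bases before a start, 32.7% held a GC box and 33.8% a CCAAT match. The TATA box TATAAA and the cyclic AMP response motif TGACG had 0 matches in the 250-base windows of these 3 genes, beside 12.4% and 17.8% of all windows. The ratio of observed to expected CpG was 0.51 for Htr1a, 0.23 for Htr2a and 0.28 for Htr2c in those windows, where the median of all windows was 0.37. These matches describe the letters only. Htr7 also had a negative correlation with the CA1 score and is not shown. Its 250-base window held 0 bases before the annotated gene.

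Htr1a, the receptor that opens potassium channels and silences pyramidal cells, stood at 8.12, 8.36, 8.18 and 8.11 in impaired mice 1 to 4, against 8.49, 7.89, 8.49 and 7.81 in intact mice 1 to 4. The impaired values lay close together and within the intact range, where 2 mice were high and 2 low. The means were 8.19 ± 0.12 in impaired and 8.17 ± 0.37 in intact mice (SD, n = 4 each). The difference, 0.023, had a standard error of 0.16 (limma, adjusted p = 0.995, 95% interval -0.33 to 0.38). Its sign turned in 4 of 20 other settings, among them without intact mouse 4 (-0.095). Changing only the filter, the prior, the probe set summary or the replicate block could not move the difference of a receptor with 1 probe set. The 20 settings include such changes.

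Htr1b, a receptor on axon terminals that curbs transmitter release, was 8.50, 8.55, 8.50 and 8.08 in impaired mice, against 8.41, 8.55, 8.40 and 8.37 in intact mice. Impaired mouse 4 was the low value, and the other 7 mice lay between 8.37 and 8.55. The difference, -0.026, had a standard error of 0.11 (limma, adjusted p = 0.993, interval -0.27 to 0.22), and without impaired mouse 4 it was 0.083. Htr5a, a less studied receptor of the inhibitory kind, was 7.87, 7.97, 7.75 and 7.82 in impaired mice, against 7.58, 7.99, 7.91 and 7.46 in intact mice. Here intact mice 1 and 4 were the low ones, and all impaired values lay within the intact range. Its difference, 0.12, had a standard error of 0.12 (limma, adjusted p = 0.961, interval -0.15 to 0.39).

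**Figure D1:**
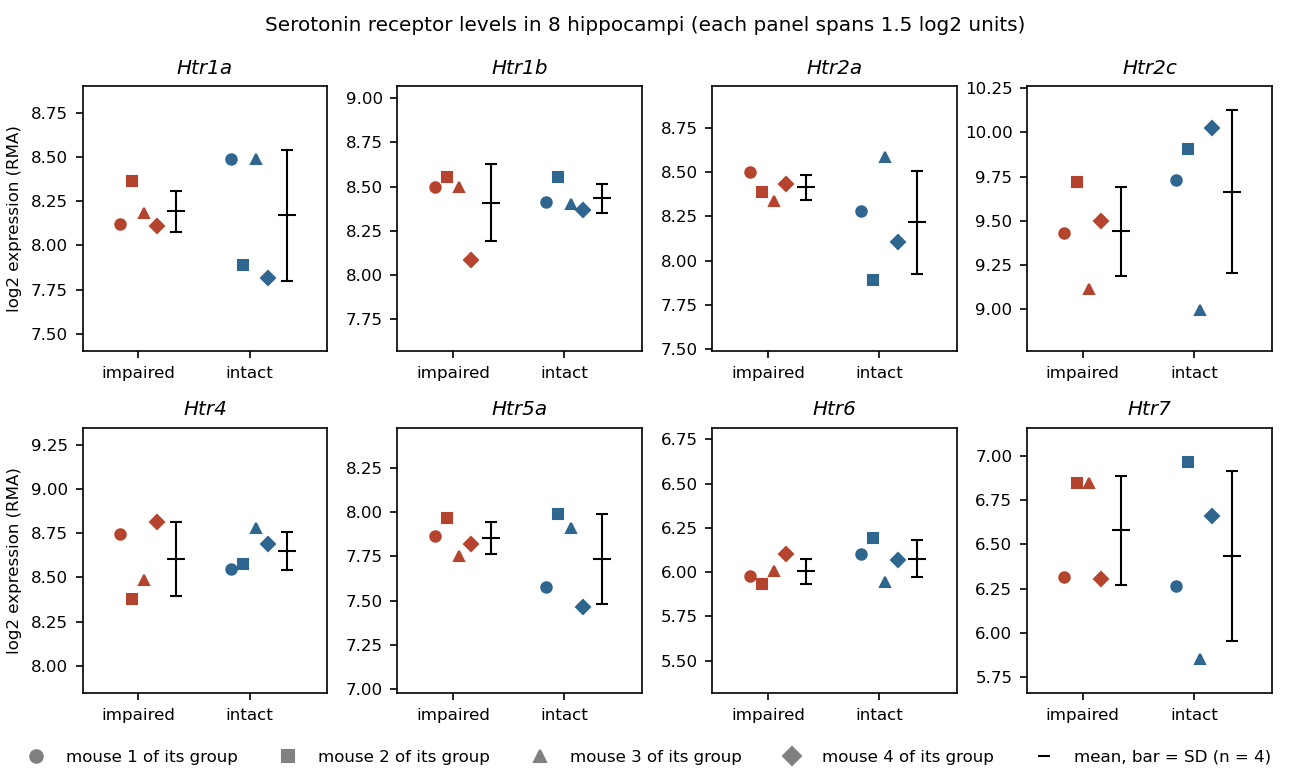
Log2 expression (y axis, RMA) of each receptor in the 4 impaired and 4 intact mice, 1 symbol per mouse, with the group mean and SD as a bar. The groups overlap in all 8 panels, and Htr2c and Htr7 have the lowest value in intact mouse 3 (8.996 and 5.85).

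Htr2a, the cortical and hippocampal Gq receptor known as the target of psychedelic drugs, was 8.50, 8.39, 8.34 and 8.43 in impaired mice, against 8.28, 7.89, 8.58 and 8.11 in intact mice. The impaired mice lay above 3 of the 4 intact mice, and intact mouse 3 had the highest value of all. The means were 8.41 ± 0.070 in impaired and 8.22 ± 0.29 in intact mice (SD, n = 4 each). The difference of 0.20, the highest of the 8, had a standard error of 0.13 (limma, adjusted p = 0.961, interval -0.092 to 0.49). It kept its sign in all 20 other settings, though, as said for Htr1a, some of them could not move it. It ran from 0.090 without intact mouse 2 to 0.35 without impaired mouse 3 and intact mouse 3, an alternative chosen after seeing the data. With both tissue scores in the fit it was 0.29 (limma, unadjusted p = 0.019). The thalamus score alone gave 0.30 (unadjusted p = 0.0053) and the plexus score alone 0.13 (unadjusted p = 0.35). Without intact mouse 3 the difference was 0.32 (unadjusted p = 0.0133), and without impaired mouse 3 and intact mouse 3 its unadjusted p was 0.0152. None of these passed the adjustment over all genes.

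Htr2c, a Gq receptor that is abundant in choroid plexus epithelium as well as in neurons, was 9.43, 9.72, 9.11 and 9.50 in impaired mice, against 9.73, 9.90, 8.996 and 10.03 in intact mice. In each group mouse 3 was the lowest, and the other 3 intact mice lay above every impaired mouse. The means were 9.44 ± 0.25 in impaired and 9.66 ± 0.46 in intact mice (SD, n = 4 each), 1.17-fold lower in the impaired group. The difference, -0.23, had a standard error of 0.21 (limma, adjusted p = 0.961, interval -0.68 to 0.23). Its SD over the 8 mice, 0.36, was larger than that of 97.8% of genes tested.

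Htr2c was lowest in the mice with the lowest choroid plexus scores. Ttr, the thyroid hormone carrier secreted by that epithelium, was 13.00, 12.30, 9.79 and 13.25 in impaired mice, against 13.69, 13.41, 10.56 and 13.28 in intact mice, with mouse 3 lowest in each group as for Htr2c. The plexus score, over 14 markers that do not include Htr2c, ran from -0.92 to 0.26 in impaired and from -0.92 to 0.86 in intact mice. Over the 8 mice, Htr2c and the score had a Pearson r of 0.80 (exact permutation p = 0.0218) and a Spearman rho of 0.81 (exact permutation p = 0.0218), and neither passed the adjustment over 48 relations computed (adjusted p = 0.209 for r). Without impaired mouse 3 and intact mouse 3 r was 0.29, so the relation rests on those 2 mice. With the plexus score as a covariate the difference between the groups was -0.037 (limma, adjusted p = 0.998), and with the plexus and the thalamus score together it was -0.21 (unadjusted p = 0.153). The thalamus score as covariate gave -0.38 (unadjusted p = 0.0281, adjusted p = 0.887). Leaving out both mice with a low plexus score gave -0.34 (limma, unadjusted p = 0.0182, not past the adjustment). Leaving intact mouse 3 out gave -0.45 (unadjusted p = 0.0095, adjusted p = 0.925).

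Htr4, a Gs receptor of pyramidal cells and granule cells, was 8.75, 8.38, 8.48 and 8.81 in impaired mice, against 8.55, 8.57, 8.78 and 8.69 in intact mice. The impaired mice held both the lowest pair and the highest value, with the intact mice between. Its difference, -0.042, had a standard error of 0.11 (limma, adjusted p = 0.991, interval -0.29 to 0.20), and it turned sign in 5 of 20 other settings. Htr6, a Gs receptor found mostly in the brain, was 5.98, 5.94, 6.004 and 6.10 in impaired mice, against 6.10, 6.19, 5.94 and 6.07 in intact mice. Its mean over all mice lay only 0.71 above the floor, where RMA compresses differences. The difference, -0.072, had a standard error of 0.083 (limma, adjusted p = 0.962, interval -0.25 to 0.11).

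Htr7, a Gs receptor that is abundant in thalamus as well as in CA3 and known for its part in body clock shifts, was 6.32, 6.85, 6.85 and 6.31 in impaired mice, against 6.26, 6.96, 5.85 and 6.66 in intact mice. The impaired group held a low pair and a high pair, and intact mouse 3 was the lowest of all. Its means were 6.58 ± 0.31 in impaired and 6.44 ± 0.48 in intact mice (SD, n = 4 each). The difference, 0.14, had a standard error of 0.22 (limma, adjusted p = 0.977, interval -0.35 to 0.64), and without intact mouse 3 it was -0.050. Its SD over the 8 mice, 0.38, was larger than that of 98.2% of genes tested, the highest of the 8 receptors.

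The thalamus score, over 12 markers of which none was below the floor, ran from -0.19 to 0.44 in impaired and from -1.38 to 0.48 in intact mice. Intact mouse 3 stood apart from the rest, so the relation with Htr7 is given within the other 7 mice. There Pearson's r was 0.93 (exact permutation p = 0.0206, adjusted p = 0.209) and Spearman's rho 0.64 (exact permutation p = 0.139). Without intact mouse 1 and impaired mouse 1 as well, r was 0.87 over 5 mice. Of those 5, impaired mouse 4 alone lay apart, at -0.0079 against 0.43 to 0.48, so that value rests on 1 mouse. The 7 scores were themselves split, with 3 mice at -0.22 to -0.0079 and 4 at 0.43 to 0.48. Htr7 was 6.26 to 6.32 in the 3 and 6.66 to 6.96 in the 4, so the r over 7 mice rests on that split. The gap between the 3 and the 4 was over 0.5 of the range of the 7 scores. Under the gap rule described further on, the 7 mice taken alone would have been given no r. With the thalamus score as a covariate the difference of Htr7 was -0.049 with an interval of -0.30 to 0.21 (limma, adjusted p = 0.969). Plcb4, a phospholipase C of the Gq pathway, had the same lowest mouse, at 8.92, 9.85, 9.66 and 8.96 in impaired mice, against 8.99, 9.92, 7.67 and 9.76 in intact mice. It was chosen after its values were seen.

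**Figure D2:**
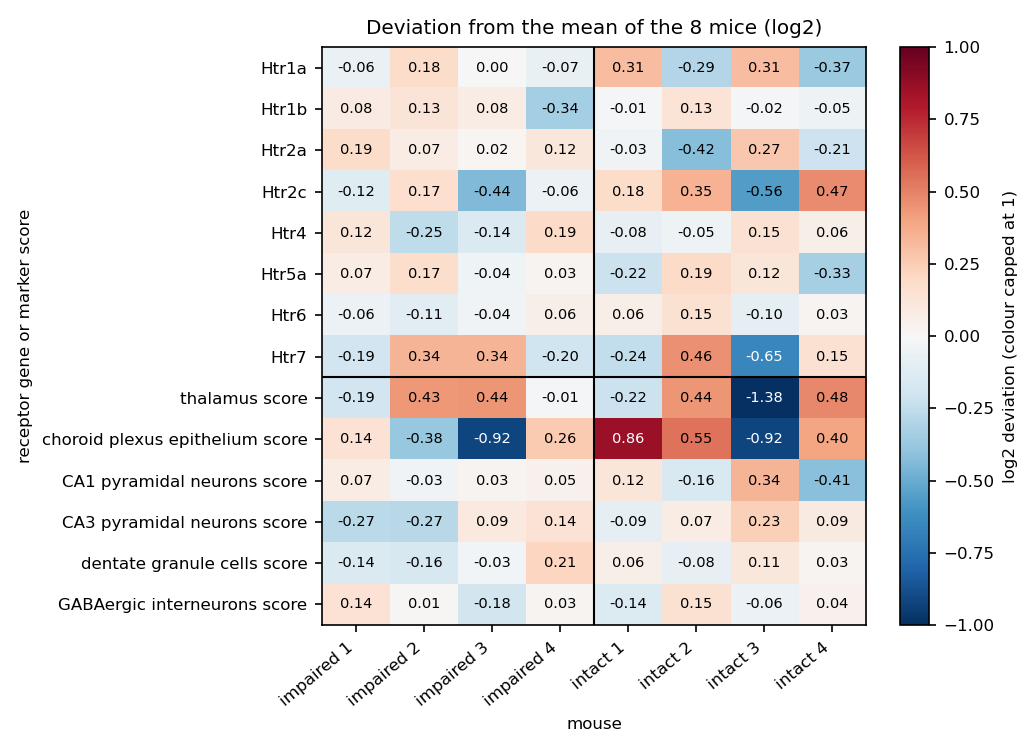
Deviation of each receptor (upper rows) and of each marker score (lower rows) from its mean over the 8 mice, in log2 units, with impaired mice left and intact mice right. Htr7 has its lowest value, -0.65, in the mouse with the lowest thalamus score, and Htr2c its 2 lowest, -0.44 and -0.56, in the mice with the lowest plexus scores.

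The 8 receptors were set against 6 scores, those of plexus, thalamus, CA1 neurons, CA3 neurons, dentate granule cells and GABAergic interneurons. Of these 48 relations, 0 passed an adjusted p of 0.05 (exact permutation test, Benjamini-Hochberg) and 8 had an unadjusted p under 0.05. Htr1a and the CA1 score had a Pearson r of 0.84 (exact permutation p = 0.0055, adjusted p = 0.133) and a rho of 0.76 (exact permutation p = 0.0368), and r was 0.66 without intact mice 3 and 4. Htr2a had an r of 0.75 with the same score (exact permutation p = 0.037, adjusted p = 0.254; rho 0.71, p = 0.0576). For Htr2c r was -0.80 (exact permutation p = 0.0122, adjusted p = 0.196; rho -0.69, p = 0.0694) and for Htr7 -0.70 (exact permutation p = 0.0486, adjusted p = 0.292; rho -0.83, p = 0.0154). Without intact mice 3 and 4 these 3 values were 0.76, -0.47 and -0.83. The CA1 score was highest in intact mouse 3 (0.34), where the thalamus score was lowest (-1.38). It was lowest in intact mouse 4 (-0.41), where the thalamus score was highest (0.48) and the neocortex score lowest (-0.15). Relations with these scores are therefore not separate results, and how the scores depend on each other was not tested.

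Htr1b and the dentate score had an r of -0.88 (exact permutation p = 0.0017, adjusted p = 0.081) and a rho of -0.86 (exact permutation p = 0.0107). Impaired mouse 4 had both the lowest Htr1b and the highest dentate score, 0.21, and over the other 7 mice r was -0.84 (exact permutation p = 0.0292, adjusted p = 0.384). Without impaired mice 4 and 2 it was -0.79. Htr6 had an r of 0.75 with the plexus score (exact permutation p = 0.0364, adjusted p = 0.254; rho 0.79, p = 0.0279), and 0.79 without impaired mouse 3 and intact mouse 3. The scores of the subfields themselves share the dissection with the receptors, and their part in the receptor levels was not tested beyond these relations.

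**Figure D3:**
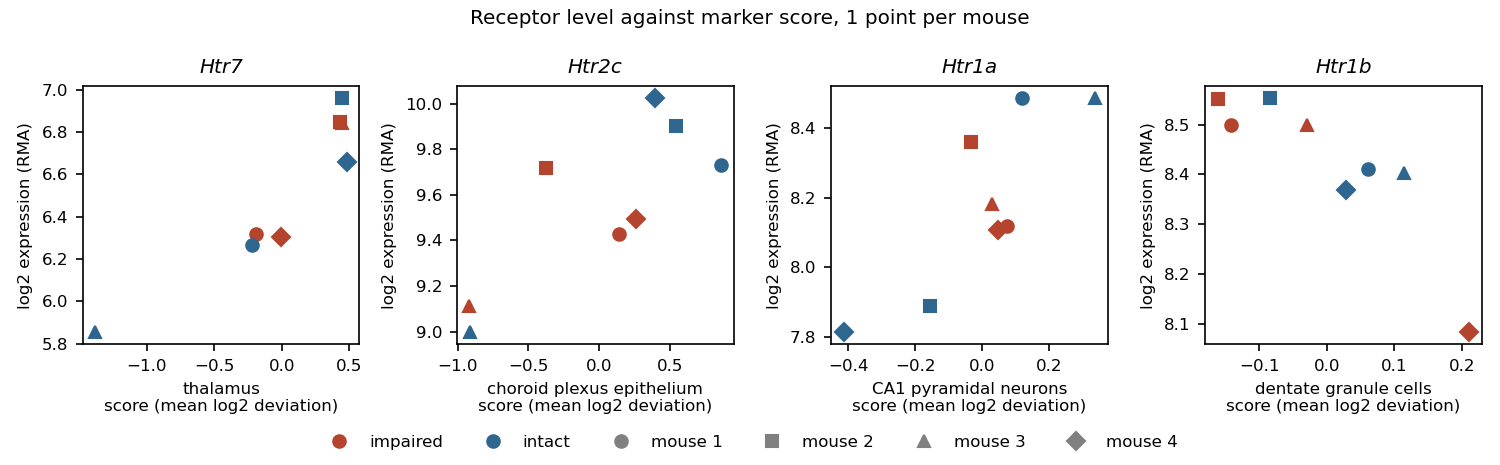
Log2 expression of 4 receptors (y axis) against a marker score (x axis, mean log2 deviation), 1 point per mouse, impaired in red and intact in blue. Htr7 is lowest where the thalamus score is lowest, Htr2c is lowest in impaired mouse 3 and intact mouse 3, Htr1a is lowest in the mouse with the lowest CA1 score, and Htr1b is lowest in the mouse with the highest dentate score.

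Among themselves, the receptors were compared in 21 pairs. Htr1b was left out of these because impaired mouse 4 stood apart. Of the pairs, 0 passed an adjusted p of 0.05 and 2 had an unadjusted p under 0.05, both with Htr2a. Htr2a and Htr6 had an r of -0.79 (exact permutation p = 0.0165, adjusted p = 0.279; rho -0.69, p = 0.0694), and Htr2a and Htr2c an r of -0.75 (exact permutation p = 0.0292, adjusted p = 0.279; rho -0.83, p = 0.0154). Without intact mice 2 and 4 they were -0.55 and -0.56.

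The genes whose pattern over the 8 arrays was most like that of a receptor were found among 13960 genes by Pearson's r. With so many candidates and 8 arrays a high r is usual, since for the median gene the third highest r was 0.949. Htr7 was followed most closely by Hcn4, a pacemaker channel, at 0.97, then Susd2 and Zbtb7c at 0.97. Htr1a went with Rilpl1 (0.98), Lurap1l (0.98) and the splicing factor Rbfox2 (0.95). Htr1b went with the casein kinase Csnk1e (0.95), Hykk (0.95) and Fam110a (0.94). For Htr2a these were Plppr2 (0.98), Borcs6 (0.97) and Pld3 (0.96), and for Htr2c Abhd14a (0.97), Alkbh7 (0.96) and the growth hormone receptor Ghr (0.96). Htr4 went with Tmem168 (0.98), P4htm (0.96) and Sytl3 (0.96), Htr5a with the kinase Stk38 (0.96), Capn10 (0.96) and Coq4 (0.94), and Htr6 with Igfbp2 (0.96), the copper chaperone Cox17 (0.96) and Gstm1 (0.95). Hcn4 was 6.90, 7.47, 7.53 and 6.97 in impaired mice, against 6.84, 7.63, 6.02 and 7.44 in intact mice. It had the same lowest mouse as Htr7, which follows largely from its choice by r over these same arrays.

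The rest of the serotonin system was read from 49 listed genes, of which 45 were on the array and 41 tested. Of these 41, 0 passed the test in either direction (limma, all 14628 genes adjusted together, background 0%). An unadjusted p under 0.05 was found for 3 of the 41, beside 4.68% of all genes tested. The groups overlapped in all 41, and over all genes tested they did not overlap for 2.58%. Values were higher in the impaired group for 22 and lower for 19, beside 47.1% of all genes tested with higher values.

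Of 6 other receptor genes 4 were tested, with 3 values higher and 1 lower in the impaired group and a median difference of 0.22. Htr2b and Htr3b lay below the floor, with values of 2.73 to 4.04 and 4.40 to 5.08. Htr5b was 7.93, 7.83, 7.62 and 7.73 in impaired mice, against 7.66, 7.40, 7.29 and 7.13 in intact mice. Impaired mouse 3 was the one impaired mouse below the highest intact mouse. Its difference of 0.41 had a standard error of 0.12 and an unadjusted p of 0.0059 (limma, adjusted p = 0.961, interval 0.14 to 0.67), and ranged from 0.33 to 0.55 over 20 other settings with no call. Htr5b, which has no working human counterpart, is also abundant in the habenula, whose marker score, over 4 of 5 markers, ran from -0.52 to 0.75 in impaired and from -0.70 to 0.70 in intact mice, and its part in Htr5b was not tested.

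Htr3a, a subunit of the only serotonin receptor that is an ion channel and a marker of some interneurons, was 7.57, 7.41, 7.03 and 8.09 in impaired mice, against 7.13, 7.39, 6.76 and 7.24 in intact mice. Impaired mouse 4 was the highest and intact mouse 3 the lowest. Its difference, 0.40, had a standard error of 0.20 (limma, adjusted p = 0.961). Leaving out impaired mouse 4 brought it to 0.21. Htr1d and Htr1f differed by -0.056 (standard error 0.31) and 0.044 (standard error 0.12).

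**Figure D4:**
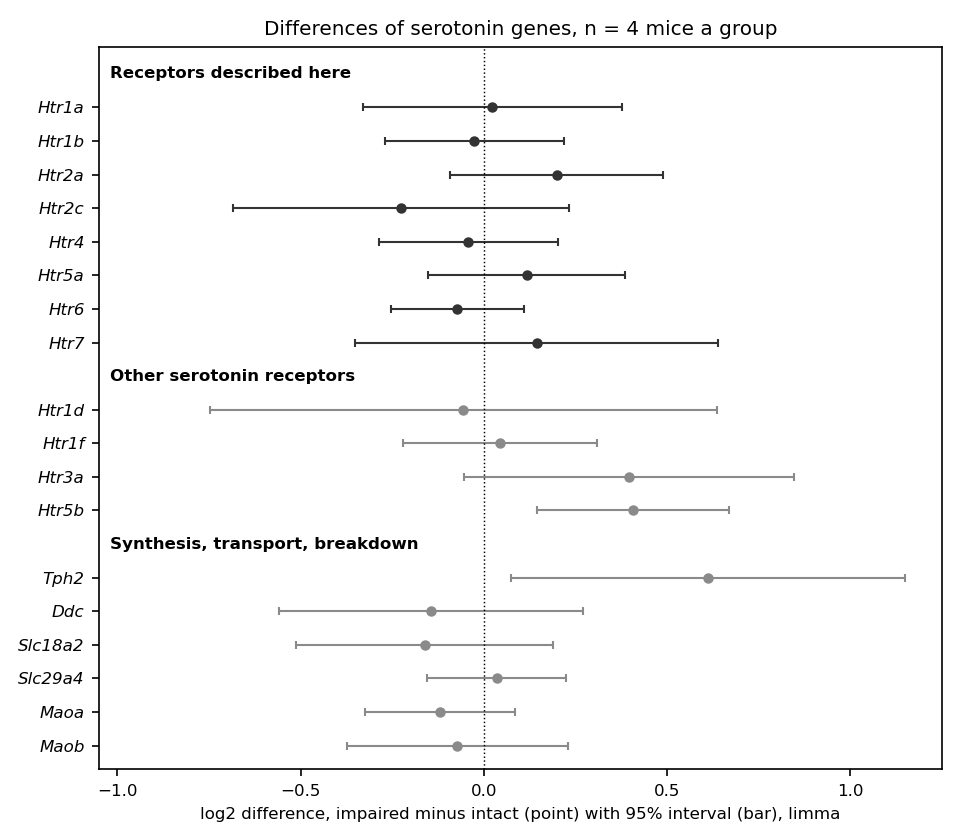
Log2 difference, impaired minus intact (point), with its 95% interval from limma (bar), for the 8 receptors, the 4 other receptors tested and 6 genes of serotonin synthesis, transport and breakdown (n = 4 mice a group). All 8 receptor intervals span 0, and of the other genes those of Htr5b and Tph2 do not, though neither passed the adjustment over all genes.

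Genes that mark the serotonergic neuron lay at different heights over the floor. Of 6 genes tested for serotonin synthesis, transport and breakdown 2 values were higher and 4 lower in the impaired group (median -0.096). Of 6 listed markers of serotonergic neurons 5 were on the array and 4 tested. Lmx1b, a transcription factor those neurons need, had a mean 2.59 above the floor, the vesicle transporter Slc18a2 1.47 above it and En1 0.61 above it. Lmx1b was 7.61 to 8.11 in impaired and 7.77 to 8.18 in intact mice. Slc6a4, the serotonin transporter, was 5.001 to 5.49 in impaired and 4.60 to 5.25 in intact mice, with a mean below the floor, as was Tph1. Tph2, the neuronal enzyme that starts serotonin synthesis, was 5.81, 5.83, 6.49 and 5.71 in impaired mice, against 5.10, 4.76, 5.91 and 5.62 in intact mice. Impaired mouse 3 was the highest, and the mean over all mice lay 0.33 above the floor. Its difference, 0.61, had a standard error of 0.24 (limma, unadjusted p = 0.0292, adjusted p = 0.961). Maoa and Maob, the monoamine oxidases, differed by -0.12 (standard error 0.093) and -0.073 (standard error 0.14). Without intact mouse 4 Maoa differed by -0.066. Slc18a2, Ddc and the uptake transporter Slc29a4 differed by -0.16, -0.14 and 0.034.

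Downstream of the receptors, 0 of 10 genes on the Gi side, 0 of 9 on the Gs side and 0 of 6 on the Gq side passed. Their median differences were 0.014, 0.033 and 0.0017, beside -0.0083 over all genes. Adcy6, an adenylyl cyclase, was 8.33, 8.22, 8.16 and 8.22 in impaired mice, against 8.16, 8.11, 7.80 and 8.003 in intact mice, and its difference of 0.21 (standard error 0.094) had an adjusted p of 0.961 in limma. Impaired mouse 3 alone lay below the highest intact mouse. Kcnj9 and Kcnj6, subunits of the potassium channels that Htr1a opens, differed by 0.13 (standard error 0.086) and -0.16 (standard error 0.13). The G protein genes Gnas and Gna11 differed by -0.061 and -0.056, and the diacylglycerol kinase Dgkz by 0.081. When 1 mouse was left out, Adcy6 came to 0.14 and Kcnj6 to -0.064 (both without intact mouse 3), Gnas ran from -0.11 to -0.022 and Dgkz from 0.0092 to 0.14. Of 6 receptor partners tested, 0 passed, with a median difference of -0.010. S100a10, also called p11, which brings Htr1b and Htr4 to the cell surface, differed by 0.12 (standard error 0.12), and Mpdz, a scaffold that binds Htr2c, by -0.12 (standard error 0.11). Single mice moved both: S100a10 was 0.027 without impaired mouse 2 and 0.22 without impaired mouse 3, and Mpdz was -0.21 without impaired mouse 2 and -0.063 without intact mouse 1.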

How the data were processed

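Total RNA of 1 hippocampal sample per mouse, 1 ng per array, was amplified, labelled with biotin and hybridised to 1-colour arrays, per the labels' protocols. The authors deposited log2 values made with RMA, per the submitters' processing notes, a method that subtracts background, equalizes the arrays' distributions and combines probes. RMA compresses differences of dim genes. No RMA version or build is given in the sources used here.

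Of 29129 probe sets, 19572 had 1 gene symbol in the platform's table, 0 had several and 9557, controls included, had none. For 55 of 19505 genes the brightest of several probe sets was used. The lowest 25% of genes by mean were left out (floor 5.33), which kept 14628. Array medians were 7.75 to 7.79, and pairs of arrays correlated at 0.979 to 0.989 across genes. Groups were compared with limma 3.58.1 in R 4.3.3 (lmFit, eBayes, two-sided, Benjamini-Hochberg over all genes tested). Relations across mice used exact two-sided permutation over all pairings in Python 3.11.15. Where the largest gap between neighbouring scores was over 0.5 of their range, r was taken within the cluster of 6 or more mice. The fit and the permutation test were tested on simulated data. Alternatives were other filters, priors, normalizations, array weights, covariates, the replicate block and leaving out mice. Scan batches and sex were not used.

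The members, lists and tests were chosen with earlier results of these data known. Named were the 8 receptors, the 2 genes with the smallest p of each of 6 lists, and the 3 genes most like each receptor, without predicted genes, olfactory receptors and small RNAs. The comparison of receptor pairs, other genes of the small lists, Plcb4 and the choice of promoters shown were added after seeing the data. Separate mice are biological replicates per the labels.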

Additional observations from a re-analysis of the deposited data

Results flagged for a closer look

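One mouse lay far from the other 3 of its group for 1 receptor and for 3 other genes of the serotonin system, out of 68 groups of 4 looked at. Chance flags about 1 in 20 such groups. Htr1b was 8.08 in impaired mouse 4, against 8.50 to 8.55 in the other impaired mice. Tph2 was 6.49 in impaired mouse 3, against 5.71 to 5.83 in the others of its group. Mpdz was 7.37 in impaired mouse 2, where the other impaired mice had 6.97 to 7.04, and S100a10 was 7.77 in intact mouse 3, where the other intact mice had 7.56 to 7.58. No group stood out in this way for any of the marker scores.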

How the results depend on the processing

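No receptor passed in any of 158 fits over 20 other settings (smallest adjusted p = 0.837), and no gene of the 6 pathway lists did. Over all genes, 1 passed with an intensity trend and robust prior (Scg5) and 0 in each other setting. When 1 mouse at a time was left out, the differences ran from -0.095 to 0.13 for Htr1a, -0.074 to 0.083 for Htr1b, 0.090 to 0.32 for Htr2a, -0.45 to -0.10 for Htr2c, -0.11 to 0.034 for Htr4, 0.026 to 0.20 for Htr5a, -0.12 to -0.033 for Htr6 and -0.050 to 0.32 for Htr7. The sign turned for Htr1a with the plexus covariate (-0.042) and on leaving out impaired mouse 2 (-0.033), intact mouse 4 (-0.095) or intact mouse 2 (-0.070), and for Htr1b without impaired mouse 4 (0.083) or intact mouse 2 (0.014). It turned for Htr4 and Htr7 with the thalamus covariate (0.0046 and -0.049), with both covariates (0.063 and -0.16), without intact mouse 3 (0.0021 and -0.050) and, a setting added after seeing the data, without impaired mouse 3 and intact mouse 3 (0.043 and -0.14), and for Htr4 without impaired mouse 2 (0.034). In that added setting Gna11 also turned (0.013). The cause was not tested. Htr6 and Htr7 were not tested when the lowest 50% of genes were left out. Of the 48 relations, 2 passed without intact mouse 4, Htr1b with the dentate score (r -0.88, adjusted p = 0.0476) and Htr7 with the CA1 score (r -0.91, adjusted p = 0.0286), and 0 in each other setting. Deviations of mice with the same replicate number correlated at -0.10 to 0.033 between the groups. These values cannot show whether the numbers pair mice, since a shared dissection or batch need not move most genes. With the replicate block 0 genes and 0 receptors passed. There the Htr2c difference stayed at -0.23 with a standard error of 0.12 (limma, unadjusted p = 0.0922, adjusted p = 0.986).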
